A study of Mus musculus with 6 samples.

Results

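Heparan sulfate is a sulfated sugar chain carried on proteins of the cell surface and matrix. The genes described here are 36 genes that build the chain, modify it or carry it: 3 enzymes of the linker that joins chain to protein, 5 of chain polymerisation, 16 of epimerisation and sulfation, 2 extracellular sulfatases, 6 glypicans and 4 syndecans. They were chosen by gene symbol from the 36814 genes of the deposited table, and each symbol had 1 row there. RNA was measured in 6 pools of mouse proprioceptors, the sensory neurons that report muscle length and force. The TA group held 3 pools supplying the tibialis anterior muscle, and the GS group held 3 pools supplying the gastrocnemius muscle. All pools came from a Pv::YFP reporter line in which CTB-555, a tracer carried back along the axon, was injected into the muscle at postnatal day 0. A pool held 25 to 30 tracer-labelled neurons, isolated manually on postnatal day 1. The labels call the pools biological replicates and do not say whether they came from separate animals, so p-values measure only the spread between these pools.

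Chain synthesis starts with a xylose added to a serine of the core protein, and the Ext enzymes then polymerise alternating glucuronic acid and N-acetylglucosamine. Ndst enzymes replace acetyl groups by sulfate, Glce epimerises the uronic acid, and Hs2st, Hs6st and Hs3st enzymes add sulfates at defined positions. The resulting pattern sets which growth factors, guidance cues and receptor phosphatases the chain binds, and glypicans and syndecans hold most of it at the cell surface of neurons.

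Values are RPKM as deposited, a read number scaled to gene length and library depth, and 3 values given together for a muscle are its replicates 1, 2 and 3 in that order. Net reads summed to between 7038296 and 21125960 per library, and 12658 to 15432 genes had at least 1 net read in GS libraries against 15530 to 16302 in TA libraries. All 12 proprioceptor identity markers were above 0 in every library, with a sum of 6853 to 9871 RPKM, mostly from Nefl and Nefm. Some of the 12 split by muscle, in either direction. Spp1 was at most 6.97 RPKM in TA and at least 38.5 RPKM in GS, and Pvalb at least 47.8 RPKM in TA and at most 31.3 RPKM in GS. Glial markers summed to 113 to 236 RPKM and nociceptor markers to 30.1 to 174 RPKM, overlapping between muscles. The part of other cell types in the values below was not tested. Markers of skeletal muscle summed to 323 RPKM in TA replicate 3, with 15 of 15 above 0, while the remaining 5 libraries held 7.99 to 24.9 RPKM. In those 5 libraries 2 to 7 of the 15 were above 0. Tnni1, a slow troponin, went against the list, at 5.06 RPKM in TA replicate 3 and 7.03 to 23.8 RPKM in the other libraries, where it made up most of the sum, while Actc1, a sarcomeric actin, was listed at 0 outside TA replicate 3. GS replicate 2 correlated least with the other libraries across genes (mean r of 0.728, against 0.780 to 0.834). A 0 is described as listed at 0, since the 38 mitochondrially encoded genes, which every cell uses, also stand at 0 throughout. In pooled cells, fewer expressing cells and less RNA per cell cannot be told apart.

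The comparison asked whether proprioceptors of the 2 muscles differ in these genes. Transcripts of Hs6st1, a 6-O-sulfotransferase, were higher in TA, and it was the only 1 of the 27 genes of the set tested whose difference was called. The 36 genes summed to 283, 249 and 233 RPKM in TA and to 216, 206 and 755 RPKM in GS, so the groups overlapped, with GS replicate 3 far above the rest. Ext2 alone gave 544 RPKM of that library, and without Ext2, a gene left out here after its values were known, the sums were 278, 245 and 231 RPKM for TA and 190, 205 and 211 RPKM for GS. Of the 36 genes, 27 had a mean of at least 1 RPKM and entered the test, which was limma on log2(RPKM + 1) over 10828 genes, with Benjamini-Hochberg adjustment over all of them. The threshold for a call was an adjusted p of 0.05, and fold changes are TA minus GS on that log2 scale, which understates the change of low genes. Of the 27 genes, 1 was called higher in TA, where 0.175% of all genes were, and 0 were called higher in GS, where 0.129% of all genes were. Before adjustment, 6 had a p under 0.05 with TA higher, against 8.30% of all genes, and 1 with GS higher, against 2.12%. The 2 muscles had separate ranges in 7 of the genes tested, with TA above, against 13.1% of all genes, and in 2 with GS above, against 3.48%. Hs6st1 was singled out for its pattern in these same libraries, and each of these TA counts includes it. The counts are therefore no independent support for a difference of the set. The median log2 fold change was 0.37 over the 27 genes and 0.24 over all genes, so the genes are to be read against a general shift towards TA. TA libraries also had more genes detected, and the part of that in the shift was not tested. The 19 calls over all genes towards TA and 14 towards GS became 11 and 17 with median centring and 16 and 19 with quantile normalization. At an unadjusted p under 0.05 the heparan sulfate genes then split 3 and 2 with centring, where all 10828 genes split 508 and 411. With quantile normalization they split 4 and 4, and all genes 492 and 444. Without TA replicate 3, 0 of the heparan sulfate genes were called and they split 4 and 0, where all 10630 genes tested split 585 and 160.

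**Figure D1:**
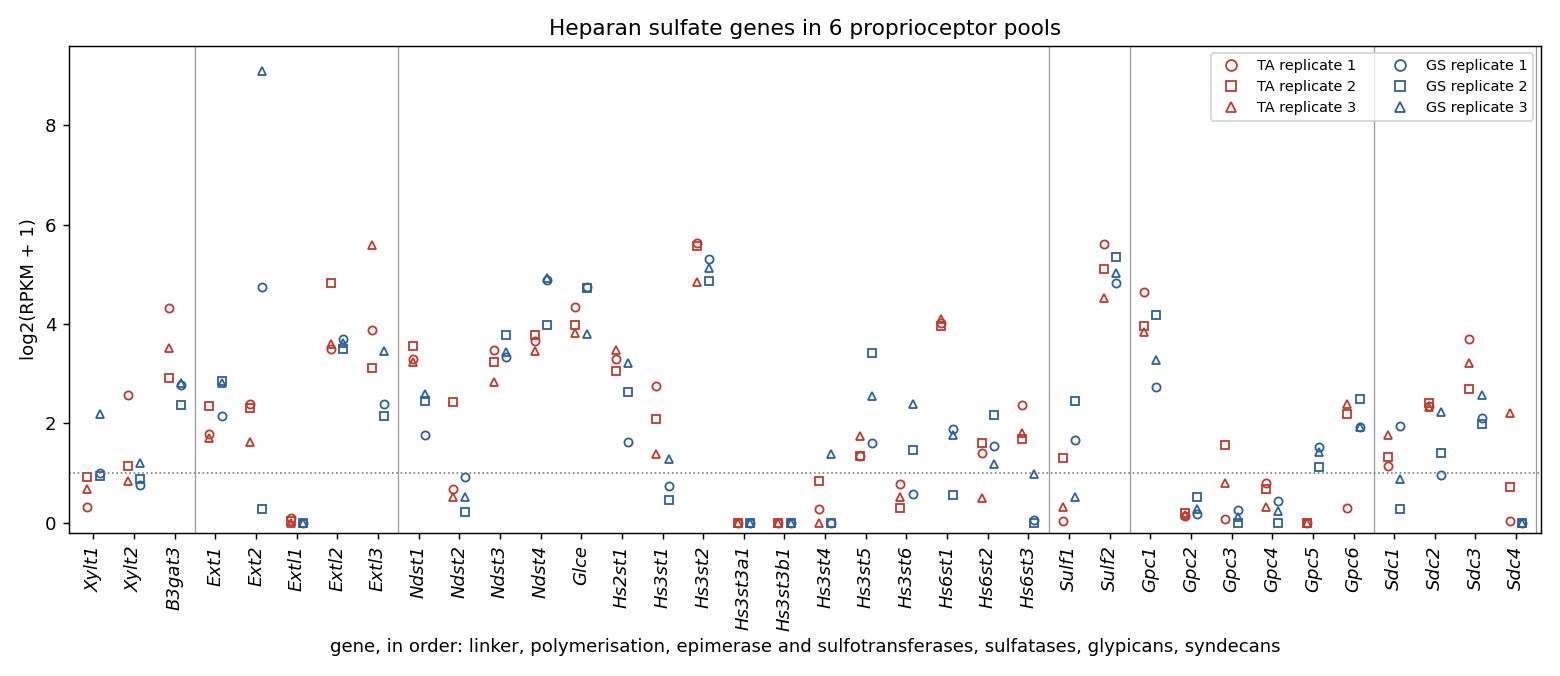
Level of each of the 36 genes in each library, as log2(RPKM + 1), with TA in red, GS in blue and the symbol giving the replicate; the dotted line marks 1 RPKM and vertical lines separate roles. The 3 TA values of Hs6st1 lie together above the 3 GS values, while the highest point of the plot is Ext2 in GS replicate 3.

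Hs6st1 (chromosome 1, 36125245 to 36163291 on the plus strand, mm9) transfers sulfate to the 6-O position of glucosamine, a mark read by fibroblast growth factors and Slit-Robo signalling among others. It had TA values of 15.3, 14.6 and 16.2 RPKM and GS values of 2.71, 0.477 and 2.39 RPKM. The TA values lay within a narrow range, and each was more than all GS values. These rest on 871, 714 and 1981 net reads in TA and on 168, 35 and 150 in GS. The TA mean was 15.4 ± 0.786 RPKM and the GS mean 1.86 ± 1.21 RPKM (SD, n = 3), a ratio of 8.27. The log2 fold change was 2.63 ± 0.45 (SE, limma adjusted p of 0.0478), or 2.39 relative to the median of all genes. Hs6st1 and Ext2 were singled out for their patterns in these same libraries, so the test is no independent support. The direction held in each alternative run, but the adjusted p lay close to the threshold. It was 0.0483 without GS replicate 2, and 0.0762 and 0.0881 without GS replicates 1 and 3. Without TA replicates 1, 2 and 3 in turn it was 0.323, 0.301 and 0.273, and it was 0.102 when each library was centred on its median. Without TA replicate 3, the library with muscle transcripts, the log2 fold change was 2.59. Hs6st1 is in the authors' deposited table for TA with a GS over TA ratio of 0.1396, a p of 0.00138 and an adjusted p of 0.1359.

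Hs6st3, a paralog with the same reaction, had TA values of 4.17, 2.20 and 2.51 RPKM and GS values of 0.0424, 0 and 0.963 RPKM. Here too the groups did not overlap, with every TA value above every GS value. The Hs6st3 values rest on 90, 41 and 117 net reads in TA and on only 1, 0 and 23 in GS. Its GS mean was 0.335 RPKM, so it passed the filter through its TA values. The log2 fold change was 1.61 ± 0.50 (SE), with a limma p of 0.00866 before and 0.336 after adjustment, so it was not called. Hs6st2, the X-linked paralog, had TA values of 1.66, 2.02 and 0.408 RPKM and GS values of 1.91, 3.49 and 1.26 RPKM, and these groups overlapped. Its log2 fold change was -0.46, with a 95% interval of -1.59 to 0.67.

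The 3 genes together made up 21.2, 18.8 and 19.1 RPKM in TA replicates 1, 2 and 3 and 4.66, 3.96 and 4.61 RPKM in GS replicates 1, 2 and 3. Summed 6-O-sulfotransferase transcript was thus of similar size within each muscle and did not overlap between muscles. Hs6st1 made up 78.2 ± 6.15% of the sum in TA and 40.6 ± 25.0% in GS (SD, n = 3). Because Hs6st1 was singled out for its pattern in these same libraries, the separate sums and its share are no further support. Hs6st2 made up 6.91 ± 4.38% in TA and 52.1 ± 31.8% in GS, where its share was 88.0% in GS replicate 2. The TA minus GS difference in share was 37.6 percentage points for Hs6st1 and -45.2 for Hs6st2, and without GS replicate 2 these were 23.3 and -27.2. These shares are a description of the 6 libraries and were not tested.

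Because the 3 enzymes are paralogs, reads from their most alike coding stretch could be assigned to the wrong gene, and the stretch is shown to let that be judged. The GENCODE coding sequences (GRCm38) were searched for the 60-base window with the most positions equal in all 3 genes without gaps. Capitals mark those positions, 54 of 60, and the window starts at base 400 of the Hs6st1 coding sequence, 820 of Hs6st2 and 574 of Hs6st3.
Hs6st1: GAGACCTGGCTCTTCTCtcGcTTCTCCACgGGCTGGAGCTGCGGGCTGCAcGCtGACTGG
Hs6st2: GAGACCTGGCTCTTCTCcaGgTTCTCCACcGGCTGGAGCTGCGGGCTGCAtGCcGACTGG
Hs6st3: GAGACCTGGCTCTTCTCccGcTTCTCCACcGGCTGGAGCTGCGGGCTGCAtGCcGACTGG
The longest run of identical bases was 20 between Hs6st1 and Hs6st2, 42 between Hs6st1 and Hs6st3 and 52 between Hs6st2 and Hs6st3. Of 5519 distinct 31-base words in Hs6st1 transcripts, 491 (8.90%) also occurred in another gene. Among the genes of the set, 12 occurred in Hs6st3, 9 in Extl1 and 0 in Hs6st2, while 387 occurred in the gene model Gm37335. How reads with several matches were treated is not stated in the labels. The deposited gene lengths were 3719 bases for Hs6st1, 7807 for Hs6st2 and 1413 for Hs6st3, the last close to its coding length of 1410 bases.

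The promoters of Hs6st1 and Hs6st3 are shown because both genes had all TA values above all GS values. Each is the 300-base window around the RefSeq start site in GRCm38, written 5′ to 3′ on the gene's strand, with each GC box, GGGCGG or its reverse complement, in capitals.
Hs6st1, chr1:36068150-36068449, plus strand: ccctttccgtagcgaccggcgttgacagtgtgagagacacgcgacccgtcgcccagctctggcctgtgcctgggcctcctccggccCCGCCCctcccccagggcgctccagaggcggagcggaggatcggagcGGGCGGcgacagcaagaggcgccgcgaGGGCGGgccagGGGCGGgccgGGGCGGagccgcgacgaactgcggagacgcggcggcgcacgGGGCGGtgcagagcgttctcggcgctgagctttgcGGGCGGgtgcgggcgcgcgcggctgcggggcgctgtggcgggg
Hs6st3, chr14:119138015-119138314, plus strand: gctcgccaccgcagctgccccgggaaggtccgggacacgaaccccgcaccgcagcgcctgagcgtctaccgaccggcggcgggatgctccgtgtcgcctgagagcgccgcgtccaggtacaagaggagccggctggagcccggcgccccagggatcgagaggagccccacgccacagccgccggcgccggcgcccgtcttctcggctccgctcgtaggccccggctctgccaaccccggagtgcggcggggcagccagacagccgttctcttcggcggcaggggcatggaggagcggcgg
The Hs6st1 window held 7 GC boxes and the Hs6st3 window held none, and 35.7% of 32851 RefSeq promoter windows held at least 1. G and C made up 78.0% and 75.3% of the bases, against a median of 52.7% over all windows. Neither window held CCGGAA, a core of many ETS factor sites, TGTGGT, a core of RUNX sites, or TATAAA, on either strand. These are matches of letters only.

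**Figure D2:**
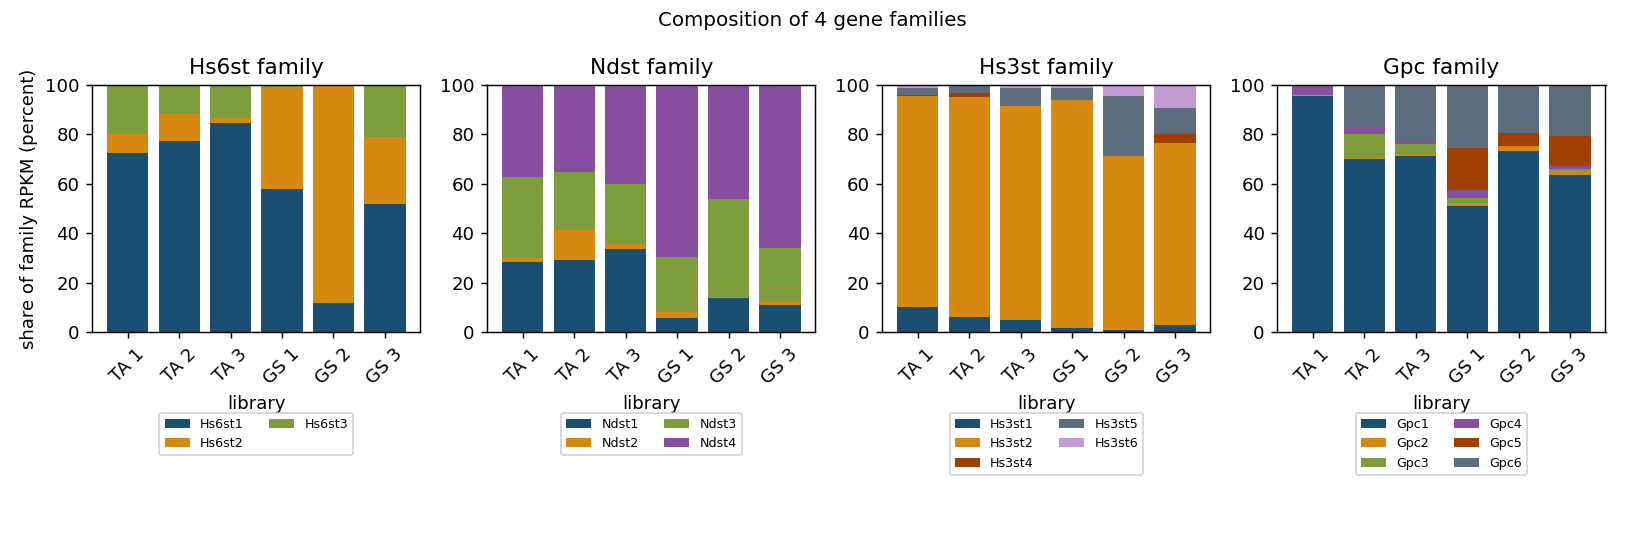
Share of each gene in the summed RPKM of its family, in percent, for each library, with TA libraries on the left and GS libraries on the right of each panel. Hs6st1 takes 72.5 to 84.7% of the Hs6st family in TA and 12.04 to 58.1% in GS, and Ndst1 takes 28.3 to 33.8% of the Ndst family in TA and 5.82 to 13.9% in GS.

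The Ndst enzymes start sulfation by exchanging the N-acetyl group of glucosamine for sulfate, and their 4 isozymes differ in activity. Ndst1 had TA values of 8.84, 10.7 and 8.49 RPKM and GS values of 2.38, 4.48 and 4.99 RPKM. Ndst4 went the other way, with TA values of 11.7, 12.8 and 10.03 RPKM and GS values of 28.5, 14.9 and 29.5 RPKM. Neither pair of groups overlapped, and neither difference was called. Ndst1 had a log2 fold change of 1.10 ± 0.40 (SE, limma p of 0.0205, adjusted p of 0.399). Ndst4 had -0.96 ± 0.38 (limma p of 0.0273, adjusted p of 0.422). The family sum overlapped between muscles, at 25.1 to 36.4 RPKM in TA and 32.2 to 44.8 RPKM in GS. Shares of Ndst1 and Ndst4 in that sum did not overlap between muscles, while those of Ndst2 and Ndst3 did. These shares are a description of the libraries and were not tested. Ndst4 made up 37.5 ± 2.42% of the sum in TA and 60.6 ± 12.6% in GS, and Ndst1 made up 30.5 ± 2.95% and 10.3 ± 4.11% (SD, n = 3). Ndst3 ranged from 6.13 to 12.7 RPKM over all libraries, and its log2 fold change was -0.33 with a 95% interval of -1.16 to 0.50. Ndst2 reached 4.41 RPKM in TA replicate 2 and did not exceed 0.900 RPKM in any other library. Ndst3 and Ndst4 transcripts shared 60 of their 31-base words.

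Glce, the only epimerase of the pathway, ranged from 13.0 to 25.8 RPKM, and Hs2st1, the only 2-O-sulfotransferase, from 2.10 to 10.2 RPKM. Both overlapped between muscles, with 95% intervals of the log2 fold change of -1.22 to 0.47 and -0.25 to 1.82.

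The Hs3st genes add the rare 3-O-sulfate, the last step of modification. Hs3st2, known from neurons, was the most abundant sulfotransferase of the set, with TA values of 48.4, 46.5 and 27.8 RPKM and GS values of 38.6, 28.1 and 34.1 RPKM. The groups overlapped, and its log2 fold change of 0.24 ± 0.34 (SE) was close to the median of all genes. It made up 86.9 ± 1.81% of Hs3st RPKM in TA and 78.8 ± 11.8% in GS (SD, n = 3). Hs3st1 had TA values of 5.76, 3.24 and 1.62 RPKM and GS values of 0.672, 0.364 and 1.43 RPKM. Every TA value of Hs3st1 lay above every GS value, though TA replicate 3 was close to GS replicate 3. Its GS mean was 0.823 RPKM, so it passed the filter through its TA values. The test of Hs3st1 gave a log2 fold change of 1.25 ± 0.52 (SE, limma p of 0.0342, adjusted p of 0.437). Hs3st5 had TA values of 1.54, 1.52 and 2.33 RPKM and GS values of 2.06, 9.64 and 4.89 RPKM, with a limma adjusted p of 0.525. Hs3st5 was thus highest in GS replicate 2, and GS replicate 1 lay within the TA range. Hs3st6 ranged from 0.224 to 0.724 RPKM in TA and from 0.486 to 4.27 RPKM in GS. Hs3st4 reached at most 1.61 RPKM and did not enter the test, and Hs3st3a1 and Hs3st3b1 were listed at 0 in all 6 libraries. Hs3st3a1 and Hs3st3b1 shared 479 31-base words, so reads from them could match both.

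**Figure D3:**
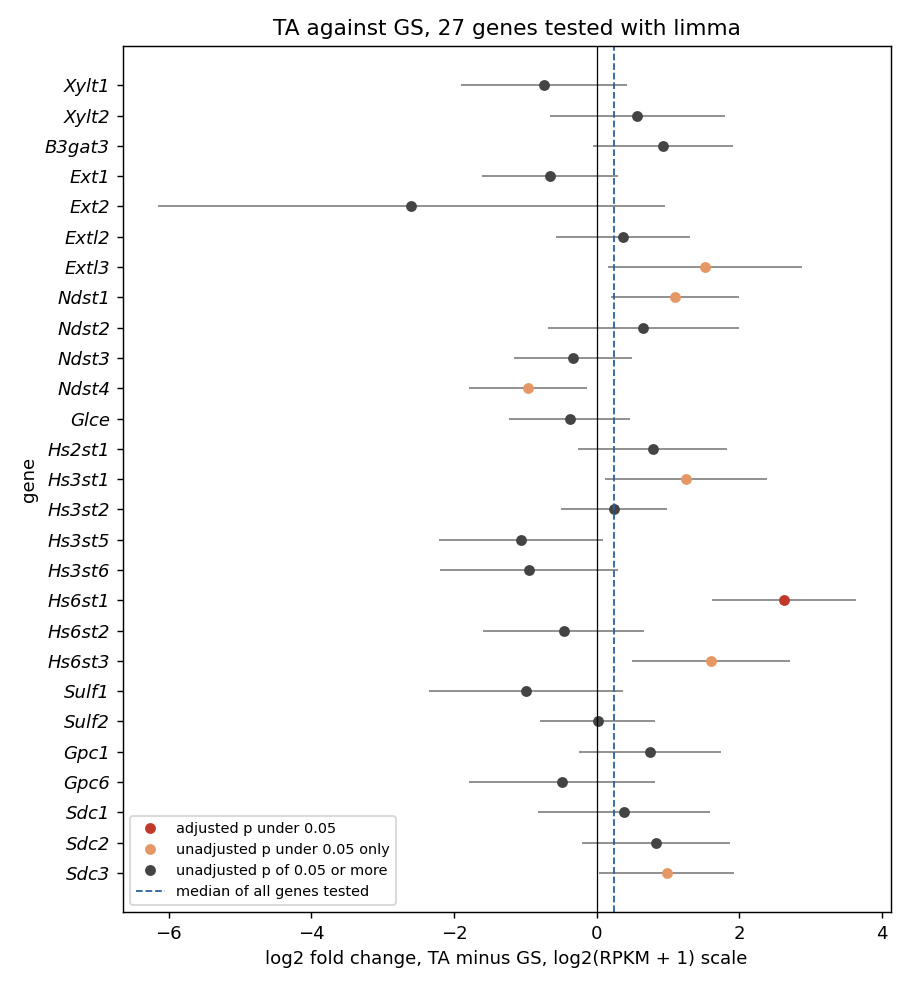
Log2 fold change of the 27 genes tested, as the difference of TA from GS in mean log2(RPKM + 1), with 95% limma intervals, in the order linker, polymerisation, sulfation, sulfatases, glypicans, syndecans; the dashed line is the median of all genes, 0.24. Hs6st1 at 2.63 is the only gene called, and the interval of Ext2 is the widest, from -6.16 to 0.96.

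Chain polymerisation rests on Ext1 and Ext2, which act as a complex. Ext2 had TA values of 4.23, 3.94 and 2.10 RPKM and GS values of 25.9, 0.213 and 544 RPKM. Both the highest and the lowest value of Ext2 were thus in GS libraries, and the TA values lay between them. In GS replicate 3 it had 61409 net reads, 77.9% of those of all 36 genes in that library, against 2880 in GS replicate 1 and 28 in GS replicate 2. Its value there was 21.0 times the next highest, and 6 of the 10828 genes tested had a value in GS replicate 3 at least 10 times that of each other library. That count was 59 for GS replicate 2, 32 for TA replicate 3 and 2 to 14 for the others. The log2 fold change was -2.60 ± 1.61 (SE), with a limma adjusted p of 0.619, so Ext2 was not called. It was -0.40 without GS replicate 3 (adjusted p of 0.888) and -4.81 without GS replicate 2 (0.111). Ext2 is in the authors' deposited table for GS at a ratio of 73.14 with an adjusted p of 1.44e-18, with 1 signal value per muscle. Ext2 lies on chromosome 2, 93535788 to 93662725 on the minus strand (mm9), and the 1 annotated gene that overlaps it, Gm13818, was listed at 0 in every library. None of the 7397 distinct 31-base words of Ext2 transcripts occurred in another gene of GENCODE. What set the level in GS replicate 3 was not tested.

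Ext1, its partner, had TA values of 2.47, 4.08 and 2.26 RPKM and GS values of 3.45, 6.20 and 6.0 RPKM, in overlapping groups. In GS replicate 3, where Ext2 stood at 544 RPKM, Ext1 was no higher than in GS replicate 2. Its log2 fold change was -0.65 with a 95% interval of -1.61 to 0.30.

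Of the Ext-like genes, Extl3, which adds the first N-acetylglucosamine and so commits the linker to heparan sulfate, had TA values of 13.7, 7.65 and 46.9 RPKM and GS values of 4.27, 3.44 and 9.99 RPKM. Its highest value was in TA replicate 3, and the groups overlapped, since GS replicate 3 lay above TA replicate 2. The log2 fold change was 1.52 ± 0.62 (SE, limma p of 0.0321, adjusted p of 0.432). TA replicate 3 was also the library with skeletal muscle markers at 323 RPKM, and their part in the Extl3 value was not tested. Without that library the log2 fold change was 0.83 (adjusted p of 0.803). Extl2, a transferase of N-acetylglucosamine and N-acetylgalactosamine, was at 27.2 RPKM in TA replicate 2 and 10.2 to 12.1 RPKM in the other 5 libraries. Extl1 was listed at 0 in 4 libraries and reached 0.0605 RPKM.

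**Figure D4:**
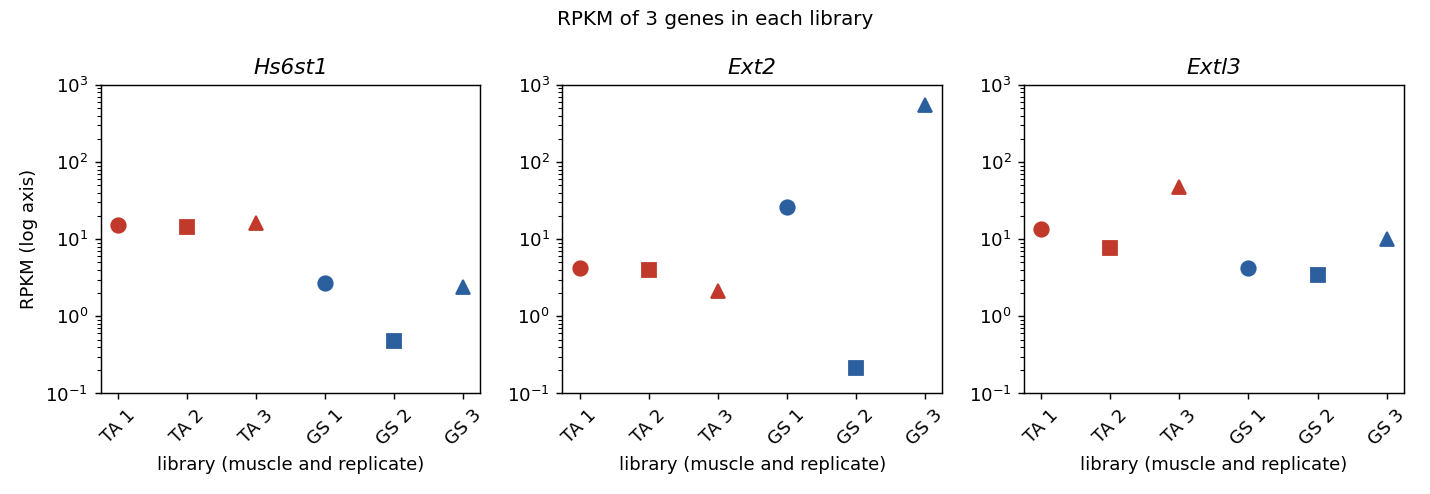
RPKM of Hs6st1, Ext2 and Extl3 in each library on a log axis, with TA in red and GS in blue. Hs6st1 separates the muscles in all 6 libraries, Ext2 reaches 544 RPKM in GS replicate 3 alone, and Extl3 is highest in TA replicate 3 with 46.9 RPKM.

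Linker synthesis is shared with chondroitin sulfate. B3gat3, which adds the glucuronic acid that completes the linker, had TA values of 19.1, 6.55 and 10.5 RPKM and GS values of 5.88, 4.15 and 6.06 RPKM. All TA values of B3gat3 lay above all GS values, by a small margin for TA replicate 2, and the test gave 0.93 ± 0.44 (SE, limma p of 0.0603, adjusted p of 0.511). Xylt1 and Xylt2 add the first xylose. Xylt1 had TA values of 0.240, 0.894 and 0.611 RPKM and GS values of 0.988, 0.928 and 3.55 RPKM. Its GS values thus all lay above its TA values, with a limma adjusted p of 0.662. The TA mean was 0.582 RPKM, so Xylt1 passed the filter through its GS values. Xylt2 was at 4.94 RPKM in TA replicate 1 and 0.686 to 1.31 RPKM in the other 5 libraries.

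Sulf1 and Sulf2 are secreted sulfatases that remove 6-O-sulfate from finished chains, the mark that Hs6st enzymes add. Sulf2 was among the most abundant genes of the set, with TA values of 48.2, 33.6 and 22.1 RPKM and GS values of 27.2, 40.1 and 31.8 RPKM. TA held both its highest and its lowest value. Its log2 fold change was 0.02 with a 95% interval of -0.79 to 0.82, and it was -0.19 with median centring and -0.09 with quantile normalization. Sulf2 overlaps Ncoa3 on the other strand, at a mean of 3.04 RPKM, and the labels do not say whether counting used strand. Sulf1 had TA values of 0.0284, 1.48 and 0.237 RPKM and GS values of 2.19, 4.46 and 0.424 RPKM. The groups overlapped through GS replicate 3, and the test gave a limma adjusted p of 0.620. Its TA mean was 0.583 RPKM, so Sulf1 passed the filter through its GS values. Sulf1 is in the authors' deposited table for GS at a ratio of 6.687, with a p of 0.0418 and an adjusted p of 0.9418. Sulf2 made up 93.7 ± 4.47% of the pair's RPKM in GS and 98.2 ± 2.18% in TA (SD, n = 3).

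Glypicans are core proteins held in the membrane by a lipid anchor. Gpc1, the main glypican of these pools, had TA values of 23.9, 14.5 and 13.4 RPKM and GS values of 5.60, 17.3 and 8.74 RPKM. The groups overlapped through GS replicate 2, and its log2 fold change was 0.75 ± 0.45 (SE, limma adjusted p of 0.609). Gpc6 had TA values of 0.229, 3.53 and 4.27 RPKM and GS values of 2.78, 4.60 and 2.81 RPKM, with TA replicate 1 apart from the rest. Gpc5 had GS values of 1.86, 1.19 and 1.68 RPKM, on 70, 53 and 64 net reads, and was listed at 0 in all 3 TA libraries. Gpc5 lay below the filter. With no filter on low values it had a log2 fold change of -1.36, a limma p of 0.000918 and an adjusted p of 0.311, so the difference was not called. Gpc5 is in the authors' deposited table for GS with a TA signal of 0, a GS signal of 222.1, a p of 0.00245 and an adjusted p of 0.199. Gpc5 (115491437 to 116923659) and Gpc6 (117324519 to 118378751) are neighbours on the plus strand of chromosome 14 (mm9), and Gpc6 was detected in all libraries of both muscles. Gpc2, Gpc3 and Gpc4 reached at most 0.439, 1.98 and 0.741 RPKM and did not enter the test. Of the 31-base words of Gpc1, 18.4% occur in transcripts of Ankmy1. Gpc2 values are uncertain, since it overlaps 2 annotated genes and 52.0% of its 31-base words occur in other genes.

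Syndecans span the membrane. Sdc3, the main syndecan of neurons, had TA values of 12.1, 5.48 and 8.27 RPKM and GS values of 3.30, 2.97 and 4.96 RPKM. Sdc2, which is found at synapses, had TA values of 4.10, 4.30 and 4.03 RPKM and GS values of 0.938, 1.65 and 3.71 RPKM. In both genes each TA value exceeded each GS value, for Sdc2 by a small margin over GS replicate 3. The log2 fold changes were 0.98 ± 0.43 for Sdc3 (SE, limma p of 0.0431, adjusted p of 0.461) and 0.83 ± 0.47 for Sdc2 (p of 0.103, adjusted p of 0.584), and neither was called. Sdc1, the epithelial syndecan, had TA values of 1.22, 1.52 and 2.40 RPKM and GS values of 2.88, 0.213 and 0.839 RPKM, in overlapping groups, and its log2 fold change of 0.38 became -0.09 with quantile normalization. Sdc4 had TA values of 0.0257, 0.656 and 3.66 RPKM, on 1, 22 and 307 net reads, and was listed at 0 in all 3 GS libraries. Most Sdc4 reads were thus in TA replicate 3, the library in which 15 of 15 skeletal muscle markers and 10 of 11 connective tissue and vascular markers were above 0. The latter markers reached a sum of 35.1 RPKM there and 0.717 to 6.69 RPKM in the other libraries, and their part in the Sdc4 value was not tested. Sdc4 is in the authors' deposited table for TA with a p of 0.00138 and an adjusted p of 0.1359. With no filter on low values Sdc4 had a limma p of 0.0980 and an adjusted p of 0.664.

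Other genes of the pathway were read from the same fit. Of 50 genes of linker, sugar and sulfate supply, other core proteins, chain breakdown and chain receptors, 33 entered the test and 0 were called with limma. Before adjustment, 1 of the 33 had a p under 0.05 with TA higher, where 8.30% of all genes did, and 3 with GS higher, where 2.12% did, and their median log2 fold change was -0.05, below the 0.24 of all genes. Cd44, a cell surface receptor that can carry the chain, had TA values of 0.582, 0.531 and 0.743 RPKM and GS values of 8.59, 3.30 and 3.76 RPKM. Lrrtm4, a postsynaptic protein that binds glypicans and other chain carriers, had TA values of 0.671, 0.852 and 0.814 RPKM and GS values of 4.40, 9.54 and 2.79 RPKM. For both genes all GS values stood above all TA values. Their TA means were 0.619 and 0.779 RPKM, so both passed the filter through their GS values. The log2 fold changes were -1.85 ± 0.48 for Cd44 (SE, limma p of 0.00283, adjusted p of 0.229) and -1.75 ± 0.50 for Lrrtm4 (p of 0.00488, adjusted p of 0.281). Spock1, a secreted testican, had a TA mean of 44.9 ± 9.79 RPKM and a GS mean of 93.8 ± 32.6 RPKM (SD, n = 3, limma adjusted p of 0.387). Papss1, which makes the sulfate donor of all sulfotransferases, had TA values of 23.8, 9.09 and 16.6 RPKM and GS values of 5.07, 9.12 and 7.79 RPKM, in overlapping groups (limma p of 0.0411, adjusted p of 0.461).

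The chondroitin sulfate branch competes for the same linker. Of its 16 genes, 10 entered the test and 0 were called with limma, and before adjustment 2 had a p under 0.05 with TA higher, against 8.30% of all genes, and 1 with GS higher, against 2.12%. Chst15, which makes a disulfated chondroitin unit, had TA values of 36.02, 29.7 and 33.6 RPKM and GS values of 19.2, 8.41 and 19.5 RPKM, and its groups did not overlap (limma p of 0.0158, adjusted p of 0.378). Ust, a uronyl 2-O-sulfotransferase of chondroitin and dermatan, had the opposite order, with TA values of 4.95, 2.29 and 3.91 RPKM and GS values of 8.69, 12.6 and 14.7 RPKM (limma p of 0.00473, adjusted p of 0.278). Chst11, a chondroitin 4-O-sulfotransferase, had TA values of 6.21, 2.07 and 8.40 RPKM and GS values of 0.347, 0.376 and 3.01 RPKM, where GS replicate 3 lay above TA replicate 2 (limma p of 0.0228, adjusted p of 0.409).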

How the data were processed

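The authors' deposited table holds, per the file headers, reads and RPKM of each gene in each library, and these are treated as a net score, since values of 683 genes (0 of the 36 described) lie below 0. No source states the step that made them so, and no count model was used. Bowtie 0.12.9, mm9 and DESeq appear in the submitters' processing notes. The labels do not state the counting step, its use of strand or its annotation. The authors' deposited lists of genes higher in 1 muscle give a signal per muscle, a GS over TA ratio, a p-value and an adjusted p-value, per the file headers. RPKM were tested with limma 3.58.1 (R 4.3.3) on log2(RPKM + 1), group as the only term, with an empirical Bayes trend. Genes with a value below 0 were left out, 1 row per symbol was kept (the highest mean), and a mean of at least 1 RPKM was required. The fit was tested on simulated data. Depth is given as net reads, and 1 read per kilobase is worth 0.0303 to 0.0759 RPKM. Coordinates are mm9 with the last base as the end, and sequences are RefSeq or GENCODE vM21 on GRCm38. Of the 36 genes, 26 had a RefSeq promoter. Values by library are given for genes with an unadjusted p under 0.1, groups that do not overlap or a deposited list entry, for the highest gene of each family and for some relatives of these. The genes and lists were chosen with earlier results of these data known. Alternatives were other pseudocounts, filters, rescalings, row choices, no trend, a replicate block and leaving out each library.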

Additional observations from a re-analysis of the deposited data

How the results depend on the processing

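With limma, the 19 calls towards TA and 14 towards GS over all genes became 7 and 6 with a pseudocount of 0.1, 14 and 8 with a pseudocount of 5, and 9 and 8 at a mean of at least 5 RPKM. They became 11 and 17 with median centring, 8 and 8 with the replicate block, and 0 and 0 with no filter on low values, where 1251 and 250 had an unadjusted p under 0.05. Leaving out 1 library gave 1 to 19 towards TA and 1 to 10 towards GS. Of the heparan sulfate genes, 0 were called higher in TA with a pseudocount of 0.1, the stricter filter, no filter, median centring, no trend or the replicate block, and 0 to 1 without 1 library. At an unadjusted p under 0.05, 2 to 8 were higher in TA and 0 to 2 higher in GS over these settings. Quantile normalization lay outside that range for GS, with 4 and 4 of 27, against 492 and 444 of 10828 genes. With the stricter filter, 3 of 14 were higher in TA and 1 in GS, where 414 and 132 of 5262 genes were. With no filter it was 4 and 2 of 34, against 1251 and 250 of 18604 genes. Without GS replicate 3 it was 8 and 1 of 25, against 1198 and 340 of 10856. Without TA replicate 1 it was 2 and 0 of 26, against 473 and 146 of 10704. Hs6st1 had an adjusted p of 0.0479 to 0.232 over the 10 other processing settings and passed in 4. Its value was 0.0969 with the replicate block, 0.115 with a pseudocount of 0.1 and 0.0700 with no trend. The other 26 genes tested were called in 0 of their alternatives. Of the 27 directions, 23 held in every alternative run. Sulf2 turned to -0.19 with median centring, -0.089 with quantile normalization, and -0.11, -0.0017 and -0.25 without GS replicate 1, GS replicate 3 and TA replicate 1, with a range of -0.25 to 0.29 when 1 library was left out. Sdc1 turned to -0.086 with quantile normalization and -0.0011 without GS replicate 2 (range up to 0.84), Extl2 to -0.059 without TA replicate 2 (range up to 0.60), and Gpc6 to 0.18 without TA replicate 1 (range down to -0.87), and the cause was not tested. Same-numbered TA and GS libraries had correlations of deviations of -0.0744, -0.0185 and -0.135, against -0.0378 to 0.132 for the other TA and GS pairs. These values gave no sign of pairing by number. Deviations from a shared group mean depend on each other, so they cannot show whether a number marks a shared animal or day. The TA minus GS differences in the shares of Hs6st1, Hs6st2, Ndst1 and Ndst4 kept their direction whichever library was left out. Some values rest on few net reads, such as 28 for Ext2 in GS replicate 2. Others rest on fewer, such as 16 for Hs3st1 in GS replicate 2. Hs6st3 in GS replicate 1 and Sdc4 in TA replicate 1 rest on 1 each.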
